A study of Mus musculus with 18 samples.

Results

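The 9 genes described here, Hmgcs1, Mvd, Idi1, Fdps, Fdft1, Sqle, Lss, Cyp51 and Dhcr7, encode enzymes of cholesterol synthesis. They were chosen by gene symbol from 19938 genes measured on mouse expression arrays, and a gene with several array features was represented by the feature whose mean over the 18 arrays was highest. All 9 were measured and none was lost to a filter. The array features used were 10412466 for Hmgcs1, 10582310 for Mvd, 10482762 for Idi1, 10499483 for Fdps, 10420730 for Fdft1, 10424349 for Sqle, 10364194 for Lss, 10527920 for Cyp51 and 10559312 for Dhcr7. The arrays hold total RNA of alveolar type II cells, the lung epithelial cells that make surfactant, isolated from mice of 7 to 8 weeks with or without a deletion of Cebpa, which encodes the transcription factor C/EBPα. The study asked which genes depend on Cebpa early in hyperoxia, the breathing of oxygen at a high concentration, and took cells at 0, 2 and 24 h.

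The Cebpa-deleted groups carry the label CCSP/rtTA/CEBPa(flx/flx), and there are 3 arrays of such cells at each of 0, 2 and 24 h. The control groups were CEBP/a(flx/flx) littermates without the rtTA or without the Cre gene, again with 3 arrays at each time. Both genotypes thus share the floxed Cebpa allele. The CCSP promoter is that of a Clara cell protein, and per the design text Cebpa was lost before birth, first from Clara cells and near term from type II cells, so neither the deletion nor its effects are limited to adult type II cells. Hyperoxia is stated for the series, whereas each sample's own description says air. The labels name neither animals nor batches, so the p-values rest on the spread among these samples, which may be technical, and a batch of processing cannot be told apart from time. Levels are RMA values on the log2 scale, on which a difference of 1 is a doubling. They are compared between arrays, within a gene or as the mean of a fixed set of genes.

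Cholesterol is built from acetyl-CoA through mevalonate, the isoprenoid diphosphates, squalene and lanosterol. The genes of the pathway share transcriptional control by the sterol-regulated factor SREBP-2, which acts with NF-Y and Sp1 at their promoters and is held in the endoplasmic reticulum by INSIG proteins when sterols are abundant. In type II cells the pathway supplies the cholesterol that is packed with phospholipid into lamellar bodies and secreted as surfactant.

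Promoter sequence from RefSeq was at hand for 6 of the 9 enzymes (8 promoters of 300 bases, 250 before and 50 after the start site, build GRCm38.p6), and 4 are shown for their last 200 bases before the start site because they stand for successive stages of the pathway and all 4 genes had lower values at 24 h in Cebpa-deleted cells. Each is written along its own gene, with motif matches on either strand in capitals. The Hmgcs1 stretch is chr13:119690151-119690350 on the plus strand, that of Mvd chr8:122443423-122443622 on the minus strand, that of Idi1 chr13:8885406-8885605 on the plus strand and that of Cyp51 chr5:4104698-4104897 on the minus strand.
Hmgcs1: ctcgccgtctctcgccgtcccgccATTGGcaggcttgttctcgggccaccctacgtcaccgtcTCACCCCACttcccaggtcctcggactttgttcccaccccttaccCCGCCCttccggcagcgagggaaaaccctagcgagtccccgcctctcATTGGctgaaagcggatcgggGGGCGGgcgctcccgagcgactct
Mvd: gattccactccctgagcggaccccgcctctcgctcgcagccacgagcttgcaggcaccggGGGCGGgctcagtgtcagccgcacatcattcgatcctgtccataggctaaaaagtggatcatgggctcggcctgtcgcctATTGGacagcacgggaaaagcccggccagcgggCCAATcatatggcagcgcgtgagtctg
Idi1: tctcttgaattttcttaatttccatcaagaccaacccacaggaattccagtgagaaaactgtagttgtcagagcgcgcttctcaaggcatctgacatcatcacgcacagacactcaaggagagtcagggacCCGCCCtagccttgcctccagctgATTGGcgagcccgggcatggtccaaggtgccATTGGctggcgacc
Cyp51: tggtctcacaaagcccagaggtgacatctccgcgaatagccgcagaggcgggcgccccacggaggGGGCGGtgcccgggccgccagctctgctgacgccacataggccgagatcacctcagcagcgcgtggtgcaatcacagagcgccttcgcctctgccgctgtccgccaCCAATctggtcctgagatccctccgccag
A form of the sterol regulatory element, TCACNCCAC, which reads GTGGNGTGA on the opposite strand, was found in the Hmgcs1 promoter at -137 from the start site and in no other promoter of the 6 genes, against 1.24% of 32851 promoters of the same length. The NF-Y box CCAAT, which reads ATTGG on the opposite strand, was found in at least 1 promoter of 6 of 6 genes, against 37.4% of all promoters. Hmgcs1 held it at -237, -176, -45 and 11, Mvd at -60 and -27, Idi1 at -45 and -14, Lss at -62 and Cyp51 at -29. The GC box GGGCGG, or CCGCCC on the opposite strand, was also found in 6 of 6 genes, against 35.7% of promoters. The C/EBP dyad TTGCNNAA (TTNNGCAA on the opposite strand) was found in 1 of the 6 genes, in 1 of the 3 promoters of Dhcr7 at -57, against 10.8%. The motifs do not overlap one another in these matches, Dhcr7 had 3 chances to hold each, and a match of letters is not evidence that a factor binds.

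The deleted gene, Cebpa, measured 46.6% of the control level at 2 h and 28.1% at 24 h (limma adjusted p = 0.00461 and 8.19e-06). At 0 h its level was 10.56 ± 0.12 in Cebpa-deleted cells against 10.99 ± 0.05 in controls (SD, n = 3 each), a difference of -0.43 with a limma adjusted p of 0.429. Where its probes lie relative to the deleted part is not given. The arrays differed in their range of values. The interquartile range over all genes was 2.89 to 3.06 on the 6 arrays at 0 h and 1.82 to 2.55 on the 12 later arrays. At 24 h it was 1.94 ± 0.16 in Cebpa-deleted cells against 2.47 ± 0.04 in controls. Among defining markers of type II cells at 24 h, the surfactant protein gene Sftpd stood at 11.24 ± 0.38 in Cebpa-deleted cells and 12.44 ± 0.17 in controls. The lipid transporter gene Abca3 stood at 10.43 ± 0.25 in Cebpa-deleted cells and 11.37 ± 0.08 in controls, and the lamellar body gene Lamp3 at 11.24 ± 0.27 in Cebpa-deleted cells and 12.08 ± 0.03 in controls. Sftpc differed less, with 13.69 ± 0.01 in Cebpa-deleted cells and 13.85 ± 0.03 in controls, values at or near the highest on their arrays.

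In control cells most of the 9 enzymes were lower at 2 h and stood near their starting level again at 24 h, with Mvd and Dhcr7 as the exceptions, whereas in Cebpa-deleted cells all 9 were low at 2 h and still low at 24 h. The part of this course that starts at 0 h changed with the scaling, and the 0 h arrays had a wider range, whose part was not tested. After a second quantile normalization 1 of 9 was lower in controls at 2 h than at 0 h. In Cebpa-deleted cells 6 of 9 at 2 h and 9 of 9 at 24 h were lower than at 0 h under that scaling. With array range as a covariate 0 of 9 were lower at 2 or 24 h than at 0 h in either genotype. Here and below, the share of all genes called in fits with that covariate is not given. The mean of the 9 was 10.33 ± 0.12 in Cebpa-deleted cells against 10.33 ± 0.11 in controls at 0 h. At 2 h it was 9.31 ± 0.42 in Cebpa-deleted cells against 9.64 ± 0.29 in controls, and at 24 h 8.99 ± 0.36 in Cebpa-deleted cells against 10.25 ± 0.08 in controls. The genotypes therefore overlapped in this mean at 0 and 2 h and were apart at 24 h, and the plot of levels by array shows the course of each gene. In bulk RNA such as this, fewer type II cells and less of a transcript per cell cannot be told apart.

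**Figure D1:**
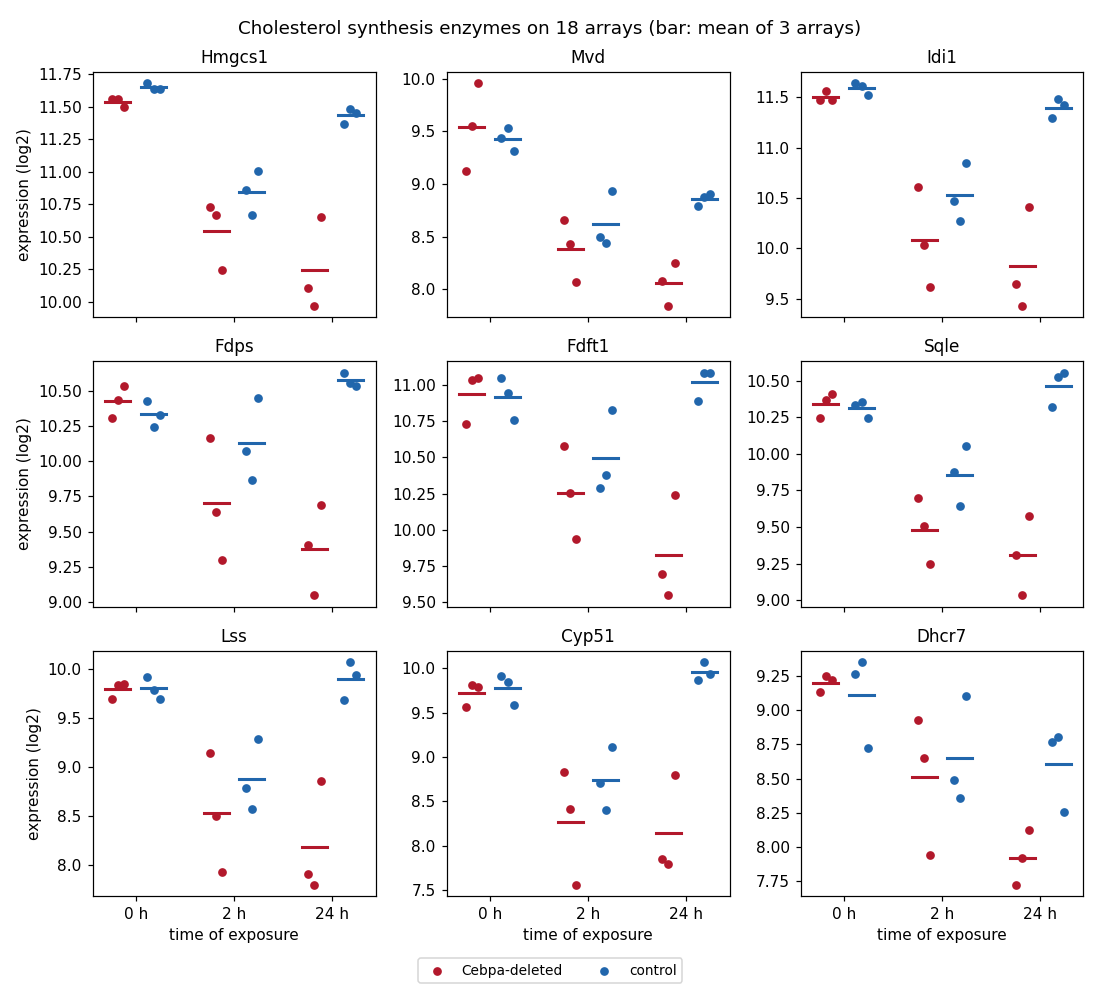
Expression (log2) of each of the 9 enzymes on the 18 arrays by time of exposure, with Cebpa-deleted arrays (red) left of control arrays (blue), a point per array and a bar at the mean of 3 arrays. The red points at 24 h lie below all blue points at 24 h in all 9 panels.

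Before hyperoxia no enzyme differed by genotype. Of the 9 genes 0 passed (limma, adjusted p below 0.05), 0 had an unadjusted p below 0.05, and the adjusted p-values lay between 0.921 and 0.997, against 0.858% of all genes called in this comparison. The differences spanned -0.11 for Hmgcs1 to 0.12 for Mvd, with a median of 0.02. Mvd, the decarboxylase that yields isopentenyl diphosphate, varied most among the Cebpa-deleted arrays at 0 h, with 9.12, 9.55 and 9.96 against 9.44, 9.53 and 9.31 in controls. Hmgcs1 varied least, and its 3 Cebpa-deleted arrays (11.56, 11.56 and 11.50) lay just under the 3 controls (11.68, 11.63 and 11.64). The 95% interval of the difference excludes a halving or a doubling for each enzyme, since the widest, those of Lss and Cyp51, ran from -0.56 to 0.55 and from -0.62 to 0.50.

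After 2 h all 9 enzymes had a lower mean in Cebpa-deleted cells, but 0 of 9 passed, against 1.4% of all genes called in either direction (limma). The median difference was -0.35, from -0.47 for Cyp51 to -0.14 for Dhcr7, where the median of all genes was -0.02. An unadjusted p below 0.05 was reached by 2 of the 9, Sqle (-0.37, SE 0.14, adjusted p = 0.254) and Fdps (-0.43, SE 0.19, adjusted p = 0.381). The arrays of the genotypes overlapped for each enzyme. The spread within the Cebpa-deleted group was wide, with a median SD of 0.44 over the 9 enzymes and 0.65 for Cyp51, against a median of 0.29 in controls. One Cebpa-deleted array, replicate 2, was the highest of its group for 9 of 9 enzymes and another, replicate 4, the lowest for 9 of 9. These 2 arrays also had the widest and the narrowest range of their group, at 2.55 and 2.16, and the mean of the endothelial markers was 8.70 on replicate 2 and 9.56 on replicate 4. Without replicate 2, Fdps alone passed (-0.66, adjusted p = 0.0349). With the array range as a covariate 7 of 9 enzymes passed as lower at 2 h, without a share of all genes to set beside that count.

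After 24 h all 9 enzymes were lower in Cebpa-deleted cells (limma, 9 of 9 called, against 26.4% of all genes called lower). Their median difference was -1.19, where the median of all genes was 0.05. For 9 of 9 the 3 Cebpa-deleted arrays lay below the 3 control arrays, against 30.4% of all genes. Highly expressed genes tended to be lower at this time, and among the 60 percent of genes with the highest means, which include all 9 enzymes, 43.8% were called lower with a median of -0.20. Of the calls over all genes 48.0% were higher, a share of 32.4% after a second quantile normalization and 37.3% with arrays centred on their medians, and the enzymes were 9 of 9 lower under both.

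Hmgcs1, the synthase that condenses acetyl-CoA units on the way to mevalonate, measured 10.10, 9.97 and 10.65 in Cebpa-deleted cells at 24 h, against 11.36, 11.48 and 11.45 in controls. At 2 h the values were 10.73, 10.66 and 10.24 in Cebpa-deleted cells against 10.86, 10.66 and 11.01 in controls. At 24 h every Cebpa-deleted array was thus below every control array, and at 2 h the groups overlapped. The 24 h difference was -1.19 (SE 0.15, adjusted p = 5.24e-05), so that Cebpa-deleted cells had 43.8% of the control level (95% interval 35.3% to 54.3%). Hmgcs1 had the lowest adjusted p of the 9 enzymes for the change of the genotype difference between 2 and 24 h.

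Mvd, whose product is isopentenyl diphosphate, measured 8.07, 7.84 and 8.25 in Cebpa-deleted cells at 24 h, against 8.79, 8.88 and 8.90 in controls. The groups did not overlap, although the gap was among the smaller ones, at -0.80 (SE 0.18, adjusted p = 0.00244). Unlike most of the others, Mvd stayed below its 0 h level in controls too, with 8.86 ± 0.06 at 24 h against 9.43 ± 0.11 at 0 h (-0.57, adjusted p = 0.012).

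Idi1, the isomerase that supplies dimethylallyl diphosphate, measured 9.65, 9.43 and 10.41 in Cebpa-deleted cells at 24 h, against 11.29, 11.48 and 11.42 in controls. At 2 h it measured 10.61, 10.03 and 9.62 in Cebpa-deleted cells against 10.47, 10.27 and 10.85 in controls, and the arrays overlapped. Its 24 h difference was -1.57 (SE 0.22, adjusted p = 0.000123), that is, 33.7% of the level in controls. A separate array feature for Idi1 gave -1.61 (adjusted p = 0.000113 over 21789 features).

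Fdps, which joins isopentenyl units into farnesyl diphosphate, the branch point between sterols and other isoprenoids, measured 9.41, 9.04 and 9.69 in Cebpa-deleted cells at 24 h. Controls measured 10.63, 10.56 and 10.54, the tightest group of any enzyme at 24 h. The difference was -1.20 (SE 0.19, adjusted p = 0.000215). At 2 h the values were 10.17, 9.64 and 9.30 in Cebpa-deleted cells against 10.07, 9.86 and 10.45 in controls, with 1 Cebpa-deleted array above 2 of the controls.

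Fdft1, squalene synthase, which commits farnesyl diphosphate to sterols, measured 9.69, 9.55 and 10.24 in Cebpa-deleted cells at 24 h, against 10.89, 11.08 and 11.08 in controls. The difference was -1.19 (SE 0.18, adjusted p = 0.000193), and a separate feature gave -1.44 (adjusted p = 0.000228 over 21789 features). The feature used here put the Cebpa-deleted level at 43.9% of the control level, and both features gave a difference beyond -1.

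Sqle, the squalene epoxidase, an enzyme that consumes molecular oxygen and is known as a control point of the pathway, measured 9.31, 9.03 and 9.58 in Cebpa-deleted cells at 24 h, against 10.32, 10.52 and 10.56 in controls. At 2 h it measured 9.70, 9.50 and 9.24 in Cebpa-deleted cells against 9.87, 9.64 and 10.05 in controls. The arrays were well apart at 24 h, and at 2 h only the highest Cebpa-deleted array reached above the lowest control. With a 24 h difference of -1.16 (SE 0.14, adjusted p = 3.73e-05) it had the smallest SE and the lowest adjusted p of the 9.

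Lss, lanosterol synthase, which closes the sterol rings, measured 7.90, 7.79 and 8.85 in Cebpa-deleted cells at 24 h, against 9.68, 10.07 and 9.93 in controls. At 2 h it measured 9.14, 8.50 and 7.93 in Cebpa-deleted cells against 8.78, 8.57 and 9.28 in controls. One Cebpa-deleted array at 24 h, replicate 4, was higher than the other two, yet it too lay below every control. The difference was -1.71 (SE 0.26, adjusted p = 0.000215), with 30.5% of the level in controls.

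Cyp51, the lanosterol demethylase, a cytochrome P450 that also consumes oxygen, had the largest difference of the 9. Its values at 24 h were 7.85, 7.79 and 8.79 in Cebpa-deleted cells against 9.86, 10.07 and 9.94 in controls. At 2 h they were 8.83, 8.42 and 7.56 in Cebpa-deleted cells against 8.71, 8.40 and 9.12 in controls, overlapping. At 24 h the genotypes were apart by -1.81 (SE 0.27, adjusted p = 0.00017), and Cebpa-deleted cells had 28.5% of the level in controls (95% interval 19.3% to 42.1%).

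Dhcr7, the reductase of the final step to cholesterol, differed least. It measured 7.72, 7.92 and 8.12 in Cebpa-deleted cells at 24 h, against 8.77, 8.80 and 8.26 in controls, so that the highest Cebpa-deleted array was close to the lowest control array. The difference of -0.69 (SE 0.23) passed with an adjusted p of 0.0205. It no longer passed without any 1 of 4 arrays, Cebpa-deleted replicates 1 and 2 and control replicates 1 and 2 (adjusted p = 0.0836, 0.0579, 0.0742 and 0.0755), nor with the replicate number as a block (-0.62, adjusted p = 0.067). The other 8 enzymes passed in all 6 fits with 1 array of the comparison dropped.

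**Figure D2:**
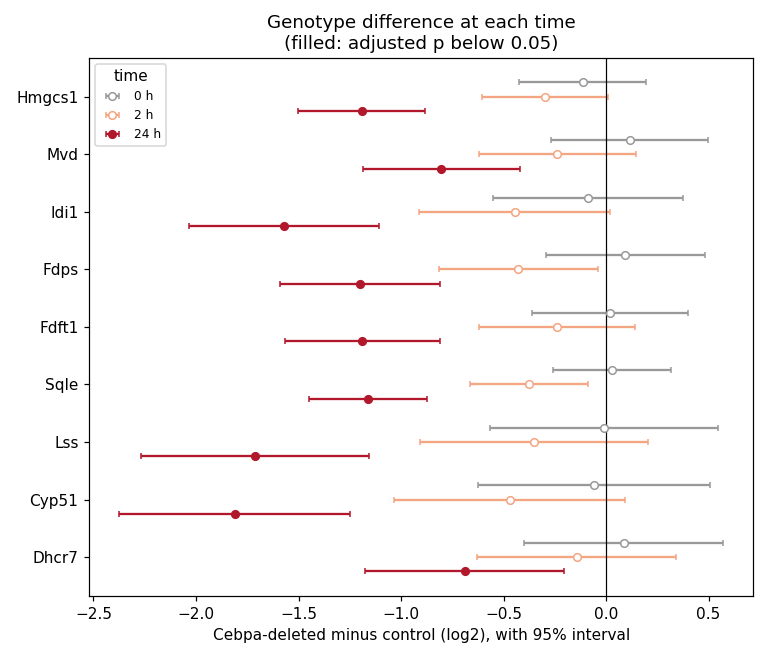
Cebpa-deleted minus control (log2) for each enzyme at 0, 2 and 24 h, as points with 95% intervals, filled where the limma adjusted p was below 0.05. The 24 h points lie between -1.81 and -0.69 and are all filled, while the 0 and 2 h points are all open.

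At 24 h the Cebpa-deleted arrays did not agree in size. Replicate 4 was the highest of the 3 for 9 of 9 enzymes and replicate 2 the lowest for 8 of 9. The range of all genes was widest on replicate 4, at 2.13, and narrowest on replicate 2, at 1.82. Across all 18 arrays the mean of the enzymes and the range of the array were both lowest on the 2 Cebpa-deleted 24 h arrays other than replicate 4. Without those 2 arrays, an alternative added after seeing the data, 2 of 9 enzymes passed at 24 h, Hmgcs1 (-0.78, adjusted p = 0.0376) and Sqle (-0.89, adjusted p = 0.0271). In that fit 1 array stands for the Cebpa-deleted 24 h group and is assumed to vary like the other groups, and all 9 values stayed negative, from -1.16 for Cyp51 to -0.49 for Dhcr7. With the range of each array as a covariate 0 of 9 passed at 24 h, and the values ran from -0.60 for Sqle to 0.25 for Dhcr7. For Sqle the SE in that fit was 0.18 and the limma adjusted p 0.332. The share of all genes that passed at 24 h in that fit is not given. The part of the array range in the 24 h difference was not tested beyond these fits.

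**Figure D3:**
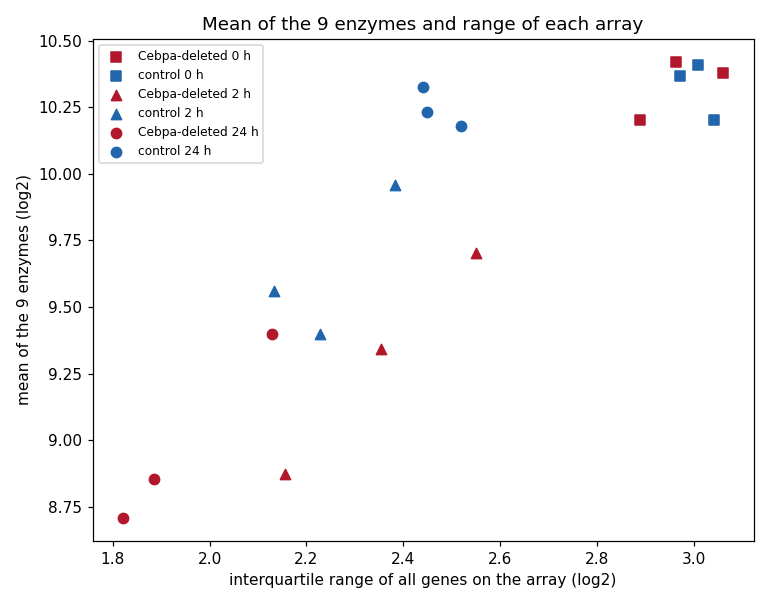
Mean of the 9 enzymes (log2) against the interquartile range of all genes (log2) on each of the 18 arrays, red for Cebpa-deleted and blue for control, with squares for 0 h, triangles for 2 h and circles for 24 h. The Cebpa-deleted 24 h arrays have ranges of 1.82 to 2.13 and means of 8.71 to 9.40, below the control 24 h arrays on both axes.

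Markers of type II cells were lower at the same time. Of 14 such markers 13 passed as lower at 24 h, beside 26.4% of all genes and 43.8% of the more highly expressed ones, with a median of -0.79. Their mean spanned 11.13 to 11.51 over the Cebpa-deleted arrays and 12.01 to 12.10 over the control arrays. The median of the 9 enzymes was -1.19, and the enzymes and markers were not tested against each other. The markers were uneven. Sftpd stood at 11.24 in Cebpa-deleted cells against 12.44 in controls. Sftpc, at or near the highest values of its arrays, stood at 13.69 in Cebpa-deleted cells against 13.85 in controls. The mean of the 9 minus the mean of the 14 on the same array was -2.33 ± 0.19 in Cebpa-deleted cells against -1.82 ± 0.07 in controls at 24 h, without overlap between the Cebpa-deleted arrays (-2.46 to -2.11) and the control arrays (-1.91 to -1.77). At 0 h the same quantity was -2.39 ± 0.12 in Cebpa-deleted cells against -2.53 ± 0.09 in controls. At 2 h it was -2.71 ± 0.16 in Cebpa-deleted cells against -2.59 ± 0.23 in controls. The control value was thus higher at 24 h than at the other times, and the Cebpa-deleted value at 24 h was close to that at 0 h. This quantity is a gap between 2 levels, and the range of the arrays differed between these times. The interquartile range was 2.97 ± 0.09 at 0 h and 1.94 ± 0.16 at 24 h in Cebpa-deleted cells. In controls it was 3.01 ± 0.03 at 0 h and 2.47 ± 0.04 at 24 h. Its part in the gap was not tested.

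Several sets of markers of other cells had higher values in the Cebpa-deleted cells. Of 12 endothelial markers 6, 10 and 10 passed as higher at 0, 2 and 24 h, with medians of 0.92, 1.01 and 0.74. Of all 19938 genes 135 were called higher at 0 h, 239 at 2 h and 4852, or 24.3%, at 24 h. The counts of endothelial markers are thus read beside a much larger background at 24 h than at the earlier times. At 24 h 1 endothelial marker was lower. The mean of the 12 spanned 9.07 to 9.21 over the Cebpa-deleted arrays against 8.26 to 8.91 over the control arrays. At 24 h 6 of 9 measured lymphocyte markers were higher, with means of 7.27 to 7.55 in Cebpa-deleted cells against 6.35 to 6.92 in controls. Of 10 fibroblast and smooth muscle markers 6 were higher, with means of 7.97 to 8.14 in Cebpa-deleted cells against 7.32 to 7.87 in controls. Of 10 macrophage markers 4 were higher and 3 lower (7.51 to 7.65 in Cebpa-deleted cells against 7.47 to 7.61 in controls). Of 7 type I cell markers 5 were lower (8.52 to 8.89 in Cebpa-deleted cells against 9.36 to 9.97 in controls), and of 5 Clara cell markers 3 were higher and 1 lower (11.68 to 11.78 in Cebpa-deleted cells against 11.63 to 11.81 in controls). No RMA value is 0, so none of these markers can be called absent. The part of cell makeup in the enzymes' difference was not tested.

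Values of Hmgcs1, Idi1, Sqle, Lss and Cyp51 in control cells were higher at 24 h than at 2 h. In controls these 5 of 9 passed as higher at 24 h than at 2 h, against 7.97% of all genes called higher, with a median of 0.59 over the 9 and of -0.06 over all genes (limma). Cyp51 was 9.95 ± 0.10 at 24 h against 8.74 ± 0.36 at 2 h (1.21, SE 0.27, adjusted p = 0.00597), and Lss was 9.89 ± 0.20 at 24 h against 8.88 ± 0.37 at 2 h (1.02, SE 0.26, adjusted p = 0.0167). Idi1 rose by 0.87 (adjusted p = 0.015), Sqle by 0.61 (adjusted p = 0.0065) and Hmgcs1 by 0.59 (adjusted p = 0.0134). For each of these 5 the 3 control arrays at 24 h lay above the 3 at 2 h. For these and the enzymes below, the share of all genes whose control arrays separate in this way is not given.

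The other 4 enzymes did not pass in controls. Fdft1 (0.52, adjusted p = 0.0663) and Fdps (0.45, adjusted p = 0.117) had all control arrays at 24 h above those at 2 h, whereas Mvd (0.24, adjusted p = 0.414) and Dhcr7 (-0.04, adjusted p = 0.922) overlapped. The separate feature of Fdft1 did not pass in controls either (0.39, limma adjusted p = 0.26 over 21789 features). Over the 6 fits that dropped an array of this comparison, Cyp51 and Sqle passed in 6, Hmgcs1 in 5, and Idi1 and Lss in 2 each. The number of enzymes called fell to 3, 2, 3 and 3 when control 2 h replicates 1 and 2 and control 24 h replicates 2 and 3 were dropped in turn. With the array range as a covariate it fell to 2.

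In Cebpa-deleted cells 0 of 9 enzymes passed between 2 and 24 h, against 31.4% of all genes called in either direction, and 2 of 9 had an unadjusted p below 0.05 (limma). All 9 values were negative, with a median of -0.32, but the direction changed in fits that took account of the arrays' range. With the range as a covariate all 9 were positive, between 0.14 for Dhcr7 and 0.98 for Cyp51, and without the 2 narrowest 24 h arrays 5 were positive. The lowest were those of Dhcr7 (-0.59, adjusted p = 0.0593) and Fdft1 (-0.43, adjusted p = 0.0765), and the one nearest 0 was that of Cyp51 (-0.13, 95% interval -0.69 to 0.44). The separate feature of Fdft1, outside this count, did pass as lower (-0.67, limma adjusted p = 0.0323 over 21789 features). That of Idi1 did not pass (-0.34, limma adjusted p = 0.253). In controls the Cyp51 change was 1.21 (95% interval 0.65 to 1.78), and the difference between these changes is tested below. Leaving out Cebpa-deleted 2 h replicate 4 or 24 h replicate 4, the lowest and the highest arrays of their groups, gave 5 of 9 called lower.

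**Figure D4:**
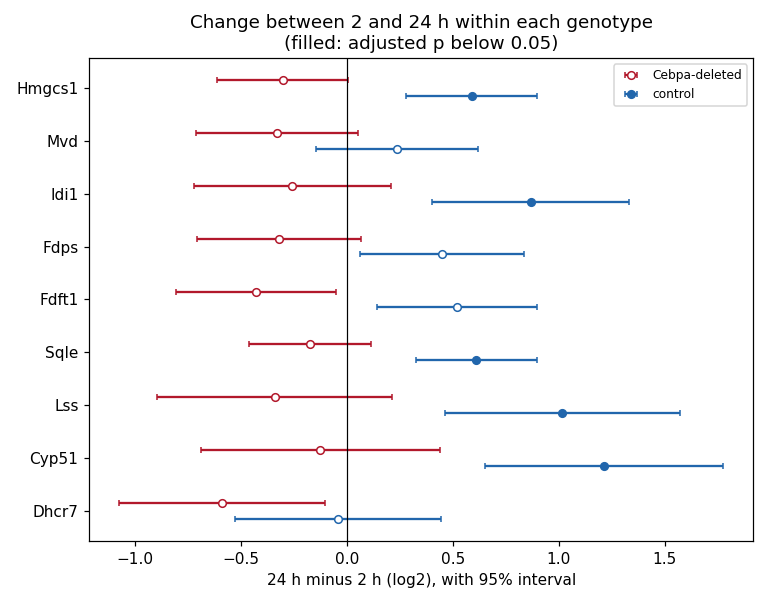
Change in expression between 2 and 24 h (log2, 24 h minus 2 h) for each enzyme in Cebpa-deleted cells (red) and control cells (blue), with 95% intervals and filled points where the limma adjusted p was below 0.05. The 5 filled points are all of controls, between 0.59 and 1.21, and all 9 red points lie below 0.

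The difference between the genotypes was itself tested across times. It was lower at 24 h than at 2 h for 7 of 9 enzymes, against 16.5% of all genes, with a median of -0.89, from -1.36 for Lss to -0.55 for Dhcr7 (limma). Mvd (-0.57, adjusted p = 0.095) and Dhcr7 (adjusted p = 0.193) did not pass. Against 0 h it was lower at 24 h for 8 of 9, all but Dhcr7 (-0.78, adjusted p = 0.1), against 8.88% of all genes, with a median of -1.21. Between 0 and 2 h 0 of 9 passed and 0 had an unadjusted p below 0.05, where 0% of all genes passed and 1279 of 19938 had an unadjusted p below 0.05. Without Cebpa-deleted 24 h replicate 2 the counts of 7 and 8 became 2 and 3. Without both narrow 24 h arrays, or with the array range as a covariate, both counts were 0.

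Against 0 h most enzymes were lower at 2 h in both genotypes in the deposited values. At 2 h 9 of 9 enzymes were lower than at 0 h in Cebpa-deleted cells, with a median of -0.99, against 36.2% of all genes. In controls 7 of 9 were lower, with a median of -0.81, against 39.4% of all genes, and the exceptions were Fdps (-0.21, adjusted p = 0.327) and Dhcr7 (-0.46, adjusted p = 0.0822). At 24 h 9 of 9 were lower than at 0 h in Cebpa-deleted cells, with a median of -1.30, against 41.5% of all genes. In controls only Mvd was, with a median over the 9 of 0.09, against 34.6% of all genes. These comparisons set arrays of a wide range against arrays of a narrow one. A second quantile normalization gives every array the same distribution over all features. After it the 2 h counts were 6 of 9 in Cebpa-deleted cells and 1 of 9 in controls. The 24 h counts under that normalization were 9 of 9 lower in Cebpa-deleted cells and 3 of 9 higher in controls. With array range as a covariate 0 of 9 passed in Cebpa-deleted cells at 2 or 24 h, and in controls 2 of 9 were higher at 2 h and 6 of 9 higher at 24 h.

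The 9 enzymes varied together within groups. After the mean of each group was subtracted, the correlation over the 18 arrays between pairs of enzymes had a median of 0.87 over 36 pairs, from 0.57 to 0.99. Values of 1 array share its RNA sample and its range, so this describes the arrays. When only the mean of each time was subtracted, which keeps the genotype difference, Cyp51 was the most like the mean of the other 8 (r = 0.99), Mvd (r = 0.90) and Dhcr7 (r = 0.80) the least. Genes of the pathway lists and genes with provisional or clone-like names were left out of the next ranking. Outside these and the enzymes, the 10 genes most like the enzymes' mean were Sgpp2 (r = 0.99), a sphingosine-1-phosphate phosphatase, Limk2, the acid sphingomyelinase Smpd1, Vma21, Tmem41b, the glutathione peroxidase Gpx1, Yipf5, Hsd17b11, Pccb and the lipid droplet protein Plin3 (r = 0.98). Their 24 h differences ran from -0.47 for Vma21 to -1.19 for Smpd1, a direction that the choice itself favours because the genotype difference was kept. Such likeness was not limited to these 10, since 178 of the 19929 other genes had an r of at least 0.95.

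Most of the rest of the pathway was lower at 24 h as well. Of 14 other cholesterol synthesis genes 10 were measured, of which 8 passed as lower, 1 as higher and 1 did not pass, with a median of -1.02, beside 26.4% of all genes called lower. Msmo1, the sterol methyl oxidase, was 10.83 ± 0.40 in Cebpa-deleted cells against 12.23 ± 0.13 in controls at 24 h (-1.40, adjusted p = 4.89e-05). Nsdhl, which acts beside it in removing methyl groups, was 8.33 ± 0.54 in Cebpa-deleted cells against 9.71 ± 0.10 in controls (-1.38, adjusted p = 0.000172). The reductase Hsd17b7 was 7.56 ± 0.33 in Cebpa-deleted cells against 8.93 ± 0.33 in controls (-1.37, adjusted p = 0.000133). Pmvk, the phosphomevalonate kinase, varied widely, with Cebpa-deleted arrays at 8.02 to 9.84 and control arrays at 9.53 to 10.60, which overlap (-1.45, adjusted p = 0.00643). Idi2, an isomerase related to Idi1, was higher by 0.38 (adjusted p = 0.0336), and the isomerase Ebp did not pass (-0.13, adjusted p = 0.3). At 0 and 2 h 0 of these 10 genes passed (limma), with 1 and 0 at an unadjusted p below 0.05.

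Most of the genes that regulate the pathway were lower too. Of 13 genes of sterol regulation and LDL uptake 9 were measured, and 8 passed as lower at 24 h, beside 26.4% of all genes and 43.8% of the more highly expressed ones, with a median of -0.67. Insig1, which retains the SREBP complex and is itself a target of it, was 10.16 ± 0.49 in Cebpa-deleted cells against 11.57 ± 0.05 in controls (-1.40, adjusted p = 8.34e-05). Srebf2, which encodes SREBP-2, was 9.85 ± 0.22 in Cebpa-deleted cells against 10.67 ± 0.11 in controls (-0.82, adjusted p = 0.000101). Its escort Scap was 8.62 ± 0.23 in Cebpa-deleted cells against 9.35 ± 0.06 in controls (-0.73, adjusted p = 0.00016). Srebf1, the factor of fatty acid genes, was 8.75 ± 0.10 in Cebpa-deleted cells against 9.42 ± 0.01 in controls (-0.67, adjusted p = 0.000914). The cholesterol carrier Stard4 differed by -1.18 (adjusted p = 0.000297), and Mylip, the ligase that degrades the LDL receptor, did not pass (-0.30, adjusted p = 0.146). Between 2 and 24 h Srebf2 rose by 0.36 in controls (adjusted p = 0.0431) and fell by 0.32 in Cebpa-deleted cells (adjusted p = 0.0372), while by genotype 0 of the 9 passed at 0 and 2 h, with 2 and 2 at an unadjusted p below 0.05.

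Branches that use or supply the pathway held genes that passed as lower and genes that did not pass at 24 h, and are read beside the same 26.4% of all genes and 43.8% of the more highly expressed ones called lower. Of 12 efflux, storage and transport genes 10 were measured and 5 were lower, a share near that of the more highly expressed genes, with a median of -0.32. The lysosomal cholesterol exporter Npc1 was 9.94 ± 0.21 in Cebpa-deleted cells against 10.98 ± 0.19 in controls (-1.04, adjusted p = 0.000165), while the efflux pump Abcg1 (0.42, adjusted p = 0.0708) and Ch25h (0.33, adjusted p = 0.109) had positive values that did not pass. Of 14 genes of the isoprenoid branch from farnesyl diphosphate 13 were measured and 9 were lower, with a median of -0.34, the prelamin protease Zmpste24 furthest (-0.72, adjusted p = 0.00102). In acetyl-CoA supply and fatty acid synthesis 13 of 15 were lower and 1 higher, with a median of -0.77. Acaca, acetyl-CoA carboxylase, was 9.53 ± 0.23 in Cebpa-deleted cells against 10.81 ± 0.08 in controls (-1.28, adjusted p = 8.67e-05), and Elovl6, the elongase of long-chain fatty acids, was higher by 0.57 (adjusted p = 0.00808). The same array range and marker values stand beside these lists, and with no set test made, nothing is said of one list against another.

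**Figure D5:**
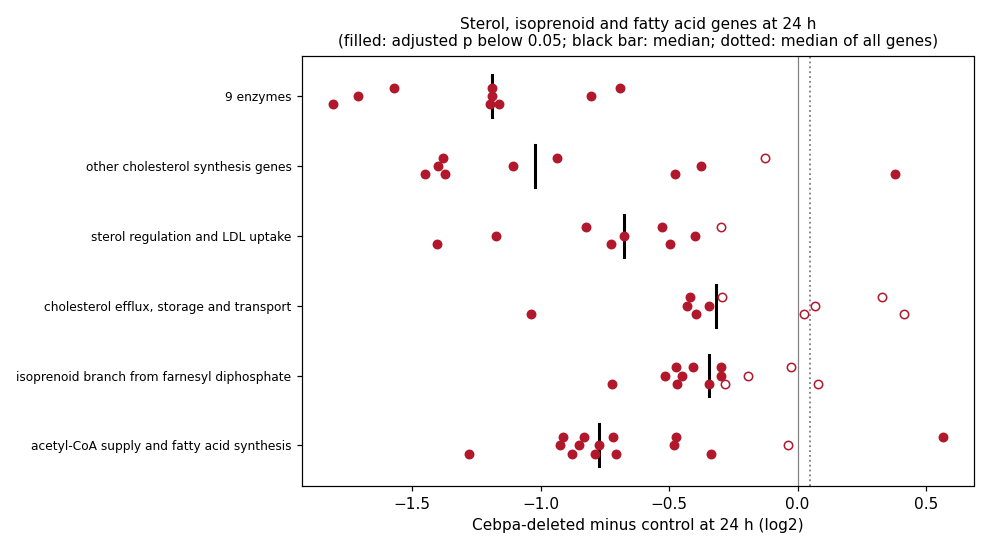
Cebpa-deleted minus control at 24 h (log2) for the 9 enzymes and for the measured genes of 5 related lists, a point per gene, filled where the limma adjusted p was below 0.05. Black bars mark the medians, -1.19, -1.02, -0.67, -0.32, -0.34 and -0.77 in the order drawn, and the dotted line the median of all genes, 0.05.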

How the data were processed

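The authors hybridized biotin-labelled total RNA of isolated type II cells to 18 arrays and deposited 1 log2 value per feature, made with RMA per the submitters' processing notes. The version, which arrays were normalized together, the array build and any filter are not given in the sources used here. Of 35557 features, 21789 had 1 gene symbol and the rest, with several or none, were left out, which gave 19938 genes. One mean per group was fitted to all 18 arrays with limma 3.58.1 (lmFit, eBayes with default settings) in R 4.3.3, and 12 contrasts were tested two-sided with Benjamini-Hochberg adjustment over all genes. Calls required an adjusted p under 0.05, and ± marks an SD of 3 arrays. The fit was tested on simulated data. The members, lists, motifs and tests were chosen with earlier results of these data known. Named genes were the 9 enzymes, Cebpa, up to 4 called genes of each list with the largest 24 h change, the SREBP genes with Insig1, and the 10 genes most like the enzymes' mean. Genes named beyond these (Idi2, Ebp, Mylip, Abcg1, Ch25h, Elovl6) were chosen after their values were seen. Replicate numbers were checked as pairs, and other scalings, filters, sets of arrays, thresholds and a covariate for array range were tried. Promoters came from RefSeq, build GRCm38.p6, and 3 arrays per group limit the precision.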

Additional observations from a re-analysis of the deposited data

Results flagged for a closer look

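The genotype difference at 24 h was not the same as at the earlier times, by a test of the difference itself (limma, interaction contrasts adjusted over all genes). Relative to 2 h it was lower for Hmgcs1 (-0.89, adjusted p = 0.00848), Idi1 (-1.13, adjusted p = 0.0171), Fdps (-0.77, adjusted p = 0.0355), Fdft1 (-0.95, adjusted p = 0.0149), Sqle (-0.79, adjusted p = 0.0103), Lss (-1.36, adjusted p = 0.0164) and Cyp51 (-1.34, adjusted p = 0.0183). Relative to 0 h it was lower for Hmgcs1 (-1.08), Mvd (-0.92), Idi1 (-1.48), Fdps (-1.29), Fdft1 (-1.21), Sqle (-1.19), Lss (-1.70) and Cyp51 (-1.75), with adjusted p-values between 0.0069 and 0.0307. Over 12 fits that left out 1 array each, the difference against 2 h passed in 12 for Hmgcs1 and Sqle, in 11 for Idi1, Fdft1 and Lss, in 9 for Cyp51 and in 3 for Fdps. That against 0 h passed in 12 for Hmgcs1, Fdps and Sqle, in 11 for Idi1, Fdft1 and Cyp51, in 10 for Lss and in 2 for Mvd. With array range as a covariate, or without the 2 narrowest Cebpa-deleted 24 h arrays, 0 of these differences passed, and under the covariate 7 of the 9 differences against 2 h were positive, up to 0.58 for Dhcr7. Control cells at 24 h and the 2 narrowest Cebpa-deleted 24 h arrays enter both sets.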

How the results depend on the processing

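The 24 h count of 9 lower enzymes was 8 or 9 under a second quantile normalization, median centring, other sets of arrays, averaged features, a filter on level, limma's trend and robust options, a minimum of 1.5-fold, an adjusted p below 0.01 and each left-out array. The count did not hold with array range as a covariate. Under the second quantile normalization, which gives every array the same range, 9 of 9 stayed lower. At 24 h the range itself differed by genotype, with 1.94 ± 0.16 in Cebpa-deleted cells against 2.47 ± 0.04 in controls. When each array's interquartile range entered as a covariate, the counts called were 7 lower at 2 h, 0 at 24 h, 2 for control cells at 24 h against 2 h, 0 and 0 for Cebpa-deleted cells at 2 and 24 h against 0 h, 2 and 6 higher for control cells at those times, and 0 for the difference at 24 h against 2 h and 0 h. Without the 2 narrowest Cebpa-deleted 24 h arrays, chosen after seeing the data, they were 2 at 24 h and 0 and 0 for the differences against 2 h and 0 h. The cause was not tested. A second quantile normalization gave 1 lower in controls at 2 h and 3 higher at 24 h against 0 h, the arrays of the compared groups alone gave 3 in controls at 24 h against 0 h (1 higher and 2 lower), and averaging the features of a gene gave 1 for Cebpa-deleted cells at 24 h against 2 h. At 1.5-fold 0 control enzymes passed at 24 h against 0 h. An adjusted p below 0.01, a stricter rule, left 2 for controls at 24 h against 2 h, 0 against 0 h, and 1 and 1 for the differences against 2 h and 0 h.

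Leaving out 1 array at a time gave counts of 0 to 1 at 2 h, 0 to 5 for Cebpa-deleted and 2 to 6 for control cells at 24 h against 2 h, 1 to 2 for controls at 24 h against 0 h, 2 to 9 for the difference against 2 h and 3 to 8 for that against 0 h. Some values changed sign over these fits. At 0 h Lss ran from -0.060 to 0.049, Cyp51 from -0.15 to 0.020, Fdft1 from -0.059 to 0.12, Mvd from -0.094 to 0.33, Sqle from -0.0041 to 0.077 and Dhcr7 from -0.11 to 0.20. At 24 h against 2 h, Idi1 ran from -0.55 to 0.0029 and Cyp51 from -0.48 to 0.16 in Cebpa-deleted cells and Dhcr7 from -0.19 to 0.18 in controls, and at 2 h Dhcr7 ran from -0.35 to 0.14.

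Other sign changes were Fdft1 at 0 h with centred arrays (-0.0041) and Sqle in Cebpa-deleted cells at 24 h against 2 h after quantile normalization (0.0053). With the range as a covariate, Cebpa-deleted cells at 24 h against 2 h gave 0.22 for Hmgcs1, 0.24 for Mvd, 0.66 for Idi1, 0.44 for Fdps, 0.29 for Fdft1, 0.26 for Sqle, 0.75 for Lss, 0.98 for Cyp51 and 0.14 for Dhcr7. The difference at 24 h against 2 h gave 0.32 for Mvd, 0.29 for Idi1, 0.40 for Fdps, 0.17 for Fdft1, 0.33 for Lss, 0.37 for Cyp51 and 0.58 for Dhcr7. The same covariate gave 0.089 for Lss and 0.039 for Cyp51 at 0 h, -0.074 for Mvd in controls at 24 h against 2 h, and for Dhcr7 0.25 at 24 h and 0.10 for its difference against 0 h. Without the 2 narrowest arrays, Cebpa-deleted cells at 24 h against 2 h gave 0.11 for Hmgcs1, 0.32 for Idi1, 0.096 for Sqle, 0.33 for Lss and 0.52 for Cyp51.

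The deviations of same-numbered arrays correlated at -0.04, 0.00 and 0.04 at 0 h, -0.24 and -0.22 at 2 h, and 0.05 and 0.06 at 24 h. Different-numbered arrays at 2 h ran from -0.57 to 0.63, so these values cannot decide whether the replicate number pairs the samples. With the number as a replicate block the counts were 0, 0 and 8 at 0, 2 and 24 h, 0 and 5 for Cebpa-deleted and control cells at 24 h against 2 h, 8 and 6 at 2 h against 0 h, 9 and 1 at 24 h against 0 h, and 6, 7 and 0 for the differences. Of all genes called in the difference at 24 h, the share higher was 46.6% against 2 h and 38.1% against 0 h, and 29.8% and 23.7% after quantile normalization. In Cebpa-deleted cells at 24 h against 2 h it was 37.7%, and 24.0% after it. With 3 arrays a group, 0 of the 2 h differences passed adjustment over all genes.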
